A study of Caenorhabditis elegans with 2 samples.

Results

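Of 744 reproducible binding regions on the 5 autosomes, 222 (29.8%, 95% interval 26.6 to 33.3) had the canonical E-box CACGTG wholly within 100 bp of the summit, and 522 had none. These 222 E-box regions are described here and set beside the 522. Members were found by sequence alone, from 100 bp before each summit to 100 bp after it, and their share is therefore a description of the rule. Binding of a transcription factor fused to GFP was mapped in Caenorhabditis elegans by chromatin immunoprecipitation and sequencing (ChIP-seq). There were 2 biological replicates of 1 group and no group to compare it with. The worms were whole L3 larvae, pooled male and female, of strain OP355, which carries unc-119(tm4063) III and the transgene wgIs355; their age is unknown. The factor is mdl-1 by its antibody and strain labels, whereas the description names eGFP-ZK337.2, so the protein is called the tagged factor. Each value comes from whole animals, so a region bound in few cells and one weakly bound in many cannot be told apart, and no cell type could be checked.

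Myc, Max, Mad and Mondo proteins are basic helix-loop-helix leucine zipper factors that bind DNA as dimers, and CACGTG is their best known site. In C. elegans they include MDL-1 and its partner MXL-1, and the Myc and Mondo relative MML-1 with its partner MXL-2. HLH-30, the TFEB homologue that controls autophagy and lysosome genes, is not one of these proteins. Its gene is counted here in the gene list called Myc/Mondo network. The hexamer is a palindrome, so it reads the same on both strands and has no direction.

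The sequences below carry the main observations: strong members on different chromosomes and in different kinds of sequence, and a member with a pair of hexamers. They also show both members at genes of the Myc/Mondo network list, and a strong autosomal region that lacks the hexamer. All are plus-strand RefSeq sequence of WBcel235 (ce11). The hexamer is in capitals, except in the last line. The nhr-19 sequence lay at chrII:9603667-9603712, in an intron. That of aakg-1 lay at chrIII:12583670-12583715, that of hlh-11 at chrIII:9619140-9619185 and that of alh-8 at chrII:11728635-11728680. The mak-1 sequence lay at chrII:8742125-8742170 and the hlh-30 sequence, in an intron, at chrIV:4026063-4026108. The full windows were chrV:20778267-20778467 before hif-1, chrIII:7376502-7376702 before mml-1 and chrIII:3801418-3801618 near mtm-3. The mtm-3 window has no CACGTG, and its capitals mark GAGAGA, which reads TCTCTC on the plus strand.
nhr-19: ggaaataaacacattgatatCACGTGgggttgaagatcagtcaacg
aakg-1: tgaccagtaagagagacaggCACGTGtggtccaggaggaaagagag
hlh-11: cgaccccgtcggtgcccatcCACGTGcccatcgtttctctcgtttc
alh-8: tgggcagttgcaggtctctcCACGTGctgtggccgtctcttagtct
mak-1: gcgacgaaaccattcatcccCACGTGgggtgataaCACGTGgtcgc
hlh-30: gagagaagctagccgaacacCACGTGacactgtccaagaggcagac
hif-1: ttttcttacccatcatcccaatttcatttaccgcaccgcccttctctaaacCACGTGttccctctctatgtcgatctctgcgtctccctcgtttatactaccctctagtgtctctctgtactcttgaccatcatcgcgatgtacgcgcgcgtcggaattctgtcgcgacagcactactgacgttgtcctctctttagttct
mml-1: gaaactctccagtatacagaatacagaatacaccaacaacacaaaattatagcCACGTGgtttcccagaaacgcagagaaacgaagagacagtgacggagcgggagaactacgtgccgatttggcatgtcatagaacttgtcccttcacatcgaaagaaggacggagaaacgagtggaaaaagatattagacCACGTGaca
mtm-3: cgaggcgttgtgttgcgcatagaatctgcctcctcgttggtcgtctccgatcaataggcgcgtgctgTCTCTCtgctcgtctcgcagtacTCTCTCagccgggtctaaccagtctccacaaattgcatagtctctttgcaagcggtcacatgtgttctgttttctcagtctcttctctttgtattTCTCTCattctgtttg

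Regions with the E-box had a higher median signal. Signal is the peak caller's score deposited for each region; its scale is not stated, and it is compared only within a list. Over the 222 members it ran from 25.9 to 327 with a median of 44.1 (quartiles 32.1 and 68.1), and over the 522 others from 25.9 to 291 with a median of 37.8 (quartiles 30.3 and 51.04). The ranges overlapped almost fully. Of the members, 58.6% lay above the autosomal median against 46.4% of the others, a difference of 12.2 percentage points (95% Newcombe interval 4.35 to 19.8). Read the other way, 130 of the 372 regions above that median had the E-box (34.9%) and 92 of the 372 at or below it (24.7%), a difference of 10.2 points (3.64 to 16.7). Intervals in these comparisons cover counting error over regions only, because regions of 1 pair of libraries are not replicates. They say nothing of the spread between animals.

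The same difference was present in the list of each replicate, taken as its 1015 regions of highest signal, which is the length of the reproducible list. In replicate 1 the E-box share was 33.0% above the median and 15.4% below it, 17.6 points apart (11.5 to 23.5). In replicate 2 it was 35.1% and 24.9%, 10.2 points apart (3.63 to 16.6). In 5 equal bins of falling signal, the share in the reproducible list went from 46.3% in the first to 28.2%, 25.5%, 24.8% and 24.3%. In replicate 1 the bins held 41.9%, 27.03%, 23.6%, 11.5% and 16.9%, and in replicate 2 they held 46.4%, 28.5%, 27.2%, 24% and 24%. In the reproducible list and in replicate 2 the step lay between the first bin and the second, with a flat course below it. In replicate 1 the share was lower again in the last 2 bins.

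**Figure D1:**
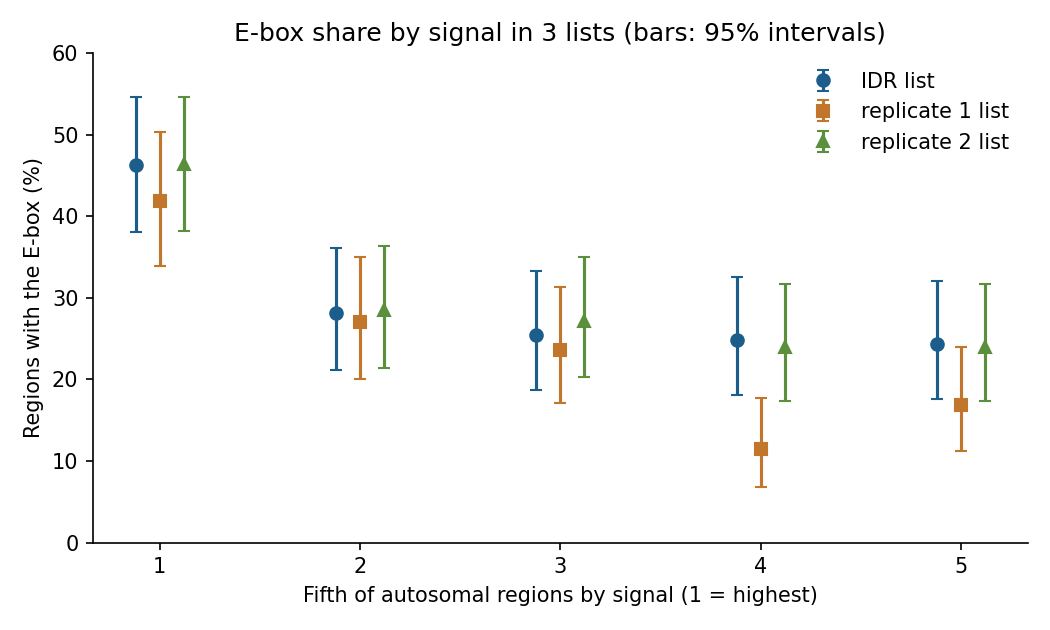
Share of autosomal regions with the E-box (vertical axis, percent) by bin of signal (horizontal axis, 5 equal bins, 1 is the highest) in the reproducible (IDR) list and in the 1015 highest regions of each replicate; bars are exact 95% intervals. The first bin holds 46.3%, 41.9% and 46.4%, above every other bin of its own list.

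The decline went on below the reproducible list. In the pooled list, ranks 1 to 1015 are the reproducible regions themselves, with 29.8%. Ranks 1016 to 2000 had the E-box in 17.7% of autosomal regions (14.99 to 20.6) and ranks 2001 to 5000 in 7.44% (6.41 to 8.57). Ranks 5001 to 10000 had it in 4.31%, ranks 10001 to 20000 in 3.51% and ranks 20001 to 30000 in 3.85%. As a background, windows of the same length centred 100 bp upstream of all 17242 autosomal protein-coding genes held CACGTG in 4.36% (4.06 to 4.67). From rank 5001 down the shares were thus at or below that background.

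Signal was then described by kind of sequence. Promoter windows began 1000 bp upstream of an annotated 5′ end and ended 200 bp downstream, and the remaining summits fell in exons, introns or intergenic sequence. Median signal was 44.3 in 87 promoter members against 38.1 in 230 other promoter regions, and 46.2 in 63 intergenic members against 36.9 in 145 others. It was 39.99 in 64 intronic members against 39.2 in 131 others, with upper quartiles of 66.3 and 52.7, and 42.6 in 8 exonic members against 38.8 in 16 others. The E-box share above the median signal exceeded that below it by 10.9 points among promoter summits and by 9.98 points among summits outside promoters, and the difference between these was not tested. Members with 2 or more hexamers had a median of 51.1 (n = 26) and those with 1 had 43.6 (n = 196), with quartiles of 36.7 to 97.2 and 31.8 to 65.2. Members that also held GAGAGA had a median of 48.9 (n = 121) and the remaining members 42.1; among regions with no E-box the medians were 39.3 and 35.2.

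The 25 members of highest signal ranged from 106 to 327. Of them, 7 had their summit in a promoter window, 8 in an intron, 1 in an exon and 9 in intergenic sequence. Highest was a region in an intron of nhr-19 (WBGene00003618, chromosome II), a nuclear hormone receptor gene, with a signal of 327, and of 72.8 in replicate 1 and 257 in replicate 2. Next came a region 8289 bp upstream of aakg-1 (WBGene00013732), which encodes a gamma subunit of AMP-activated protein kinase, with 313, 92.5 and 222 in the same order. Both ranked among the 10 highest in each replicate list. In the window of aakg-1 the hexamer centre lay 2.5 bp from the summit, and in that of nhr-19 63.5 bp.

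A region near gdh-1, the glutamate dehydrogenase gene, followed with a signal of 265, and with 46.3 in replicate 1 and 218 in replicate 2. Its summit lay 3267 bp downstream of the 5′ end in sequence annotated as intergenic. An intronic region of Y43F8B.2, which had 2 hexamers, reached 243. The region 2040 bp upstream of hif-1, the gene of the hypoxia-inducible factor, had 176, with 32.8 in replicate 1 and 143 in replicate 2. Both replicates thus listed these regions, with higher scores in replicate 2, whose scores are on their own scale.

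Among promoter members the highest were ipla-6, named as a phospholipase, with 161, hlh-11, a basic helix-loop-helix gene, with 149, and tos-1 with 145. The hlh-11 summit lay 494 bp upstream of the 5′ end and had 29.6 in replicate 1 and 122 in replicate 2. Other promoter members among the 25 were F56C9.10, ztf-7, adh-1 and dpsm-1, between 106 and 126. Intronic members were T28B11.1, ppfr-1, spop-1, drap-1, W06H8.6 and daf-14, the last encoding a Smad protein of dauer TGF-β signalling. The exonic member lay in C05D11.8 (signal 117), and its nearest 5′ end, 1791 bp away, was that of atgl-1, the adipose triglyceride lipase gene. Intergenic members were nearest to Y17G7B.17, T04C4.3, nhr-34, lpin-1, mml-1 and letm-1. Lpin-1 encodes lipin, a phosphatidate phosphatase, and its summit lay 3405 bp upstream with a signal of 113.

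Both genes of the Myc/Mondo network list with an E-box region had it in the upper part of the members by signal. The mml-1 region, 1871 bp upstream, had a signal of 110, with 25.6 in replicate 1 and 85.05 in replicate 2, and its window held 2 hexamers 139 bp apart. The hlh-30 region lay in an intron, 8881 bp inside the gene, with a signal of 96.5 and 30.6 in replicate 1. Its summit was in no region of replicate 2, but a region with a score of 65.9 (rank 107 there) began 8 bp away. The drap-1 region, with a signal of 121, was uneven by rank in the other direction. It had 7.41 in replicate 1 (rank 1168) and 114 in replicate 2 (rank 28). Some weaker members were uneven in the same way. Col-99 had 2.70 (rank 10716) and 50.3 (rank 197), and tbc-6 had 2.47 (rank 12155) and 40.6 (rank 306).

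Counted over their whole lists, replicates listed the members about as often as the other regions. Replicate 1 held the summits of 202 of 222 members (91.0%) and 468 of 522 others (89.7%), a difference of 1.34 points (-3.73 to 5.59). Replicate 2 held 221 of 222 (99.5%) and 519 of 522 (99.4%). Of the 20 members that replicate 1 did not list at the summit, F26F12.3 had the highest signal, 50.3. Among the 1015 highest regions of replicate 1 were 66.7% of members (60.05 to 72.8) and 61.7% of others (57.4 to 65.9). Among those of replicate 2 were 91.0% of members (86.4 to 94.4) and 83.5% of others (80.1 to 86.6). The share of members was thus the higher in each, and no interval of these differences was computed. Over the 90.5% of members listed in both, the 2 replicates' signals had a Spearman correlation of 0.54, and over the 465 others listed in both of 0.38; the Pearson values were 0.79 and 0.75. These are descriptions across regions of the same pair of libraries, and the reproducible list was itself made from both.

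**Figure D2:**
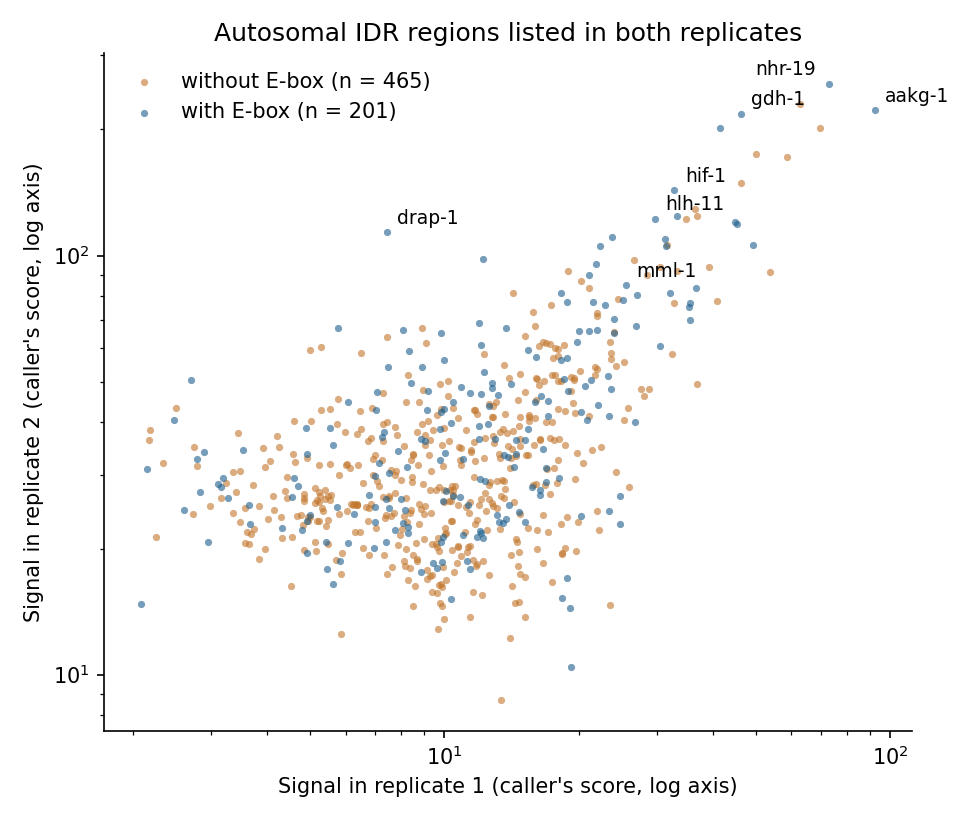
Signal in replicate 1 (horizontal) against replicate 2 (vertical), both peak caller's scores on log axes, for autosomal reproducible regions listed in both; blue points have the E-box and the 465 orange points do not. Members at nhr-19 and aakg-1 sit at the upper right, and drap-1 is high in replicate 2 (114) and low in replicate 1 (7.41).

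The hexamer lay close to the summit. The distance from summit to the centre of the nearest hexamer had a median of 30.5 bp (quartiles 13.5 and 51.2). It was within 20 bp in 81 members (36.5%), 20 to 40 bp in 56, 40 to 60 bp in 50, 60 to 80 bp in 26 and 80 to 100 bp in 9 (4.05%). The rule keeps these distances under 100 bp, but does not set the order of the bins. The nearest hexamer was on the lower-coordinate side in 125 of 222 (56.3%, 49.5 to 62.9), with a median signed offset of -4.5 bp. In the replicate lists this side held 56.98% (49.4 to 64.3) and 58.0% (51.2 to 64.5), with median signed offsets of -7.5 and -6 bp. At the limit of the rule, 9 members with a centre over 80 bp away had a median signal of 43.2, and 11 regions left out, with a centre within 120 bp, had 41.5.

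**Figure D3:**
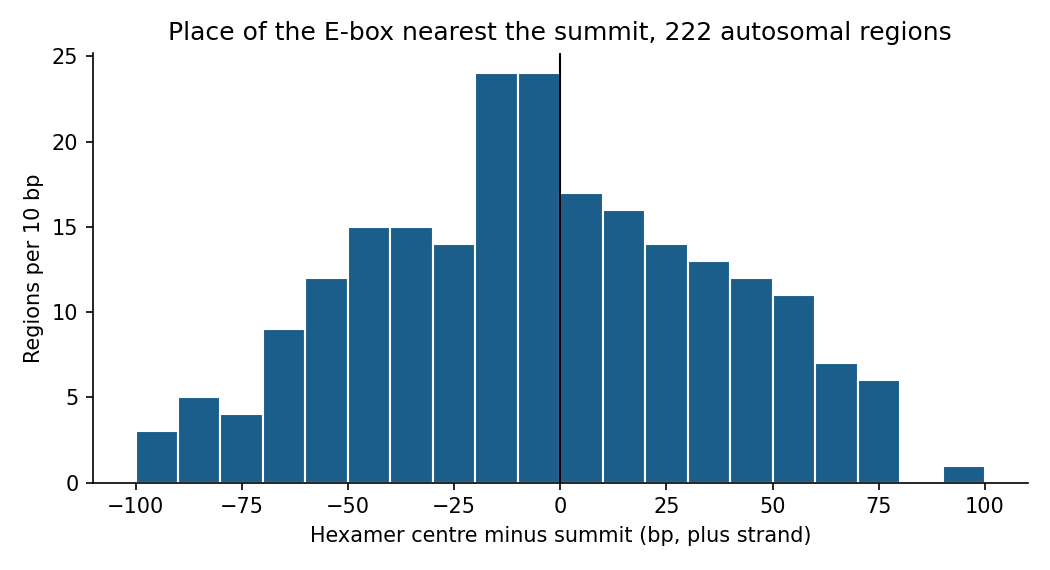
Number of members (vertical axis, per 10 bp) by the position of the nearest hexamer centre relative to the summit on the plus strand (horizontal axis, bp; the line marks the summit). The counts are highest beside the summit and fall off on both sides, with 9 of 222 beyond 80 bp.

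More than 1 hexamer was found in 26 members (11.7%), and tpra-1 had 3. The 27 pairs of neighbouring hexamers were 9 to 139 bp apart, with a median of 45 bp between their starts. In mak-1 the hexamers were 15 bp apart with a GATA hexamer, TGATAA, directly before the second. Some genes had several E-box regions. Aakg-1, nhr-34, Y43F8B.2, T28B11.1, mak-1 and M01H9.3 had 3 each, spread over 27388 bp at aakg-1 and over 3544 bp at mak-1. At aakg-1 the signals ran from 59.3 to 313 and at nhr-34 from 43.2 to 130. By the same gene rule aakg-1, T28B11.1 and Y43F8B.2 also had regions with no E-box, while nhr-34, mak-1 and M01H9.3 had none. Several regions with no E-box also fell at some genes, such as zfp-1 with signals of 126, 124 and 113. The classes were not compared in this.

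By chromosome, the E-box share was 20.6% on I (27 of 131, 14.04 to 28.5), 30.8% on II (44 of 143), 26.7% on III (46 of 172), 33.3% on IV (49 of 147) and 37.1% on V (56 of 151, 29.4 to 45.3). Chromosomes I and V were farthest apart, and their intervals did not overlap. On the X chromosome the share was 28.8% (78 of 271), close to the autosomal one.

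Members lay in the same kinds of sequence as the regions with no E-box. Their summits were in promoter windows in 39.2% against 44.1%, a difference of -4.87 points (-12.4 to 2.91). Exons held 3.60% against 3.07%, introns 28.8% against 25.1% and intergenic sequence 28.4% against 27.8%. The central of 3 equal sections of the chromosome held 49.1% against 46.2%, a difference of 2.93 points (-4.86 to 10.7). Median distance to the nearest 5′ end was 1136 bp against 1052 bp, and 35.1% against 34.5% lay over 2000 bp from any. A summit shared by 2 or more promoter windows was found in 7.66% against 12.4% (difference -4.79, -8.99 to 0.178). Within 200 bp of a tRNA gene lay 2 of 222 members and 2 of 522 others. All these intervals of a difference included 0, which does not show that the classes are alike. Base composition did differ in level, with a median GC content of 43.3% (quartiles 38.8 and 48.3) against 46.3% (41.8 and 51.2).

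**Figure D4:**
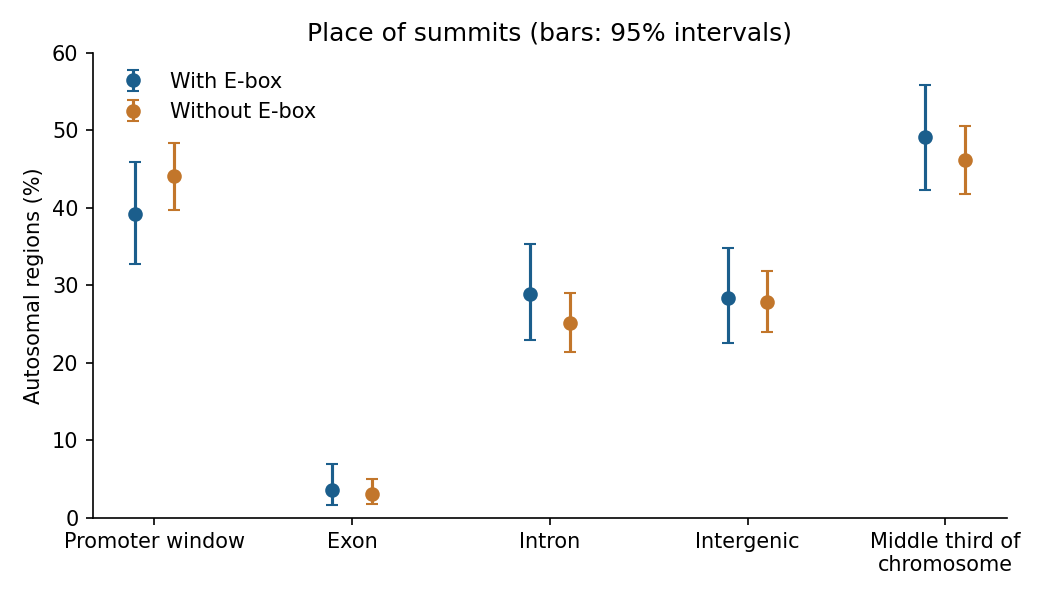
Share of autosomal reproducible summits (vertical axis, percent) in each kind of sequence and in the central of 3 sections of the chromosome, for the 222 with the E-box (blue) and the 522 without (orange); bars are exact 95% intervals. The pairs lie close together, with 39.2% and 44.1% in promoter windows.

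Only a small share of the E-boxes in the genome lay at a summit. The autosomes held 15263 copies of CACGTG, of which 249 (1.63%, 1.44 to 1.85) were within 100 bp of a reproducible summit and 1357 (8.89%) of a pooled one. Copies in promoter windows were at reproducible summits in 2.78% (95 of 3422), intergenic copies in 2.497% (73 of 2923), intronic copies in 2.04% (72 of 3526) and exonic copies in 0.167% (9 of 5392). In the central section of chromosomes the share was 2.82% (2.35 to 3.36), and in the outer parts 1.16% (0.964 to 1.38). Copies classed as exonic were 35.3% of all copies and 3.61% of those at summits, so the other copies are described next. Promoter windows were assigned before exons and can hold exon sequence. Copies called outside exons below are thus those in promoter windows, introns and intergenic sequence.

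Outside exons, 240 of 9871 copies (2.43%, 2.14 to 2.75) lay at a summit, and a nearby GAGAGA went with a higher share. GAGAGA is a repeat bound by GAGA-type factors in flies. With GAGAGA within 100 bp, 116 of 1066 copies were at a summit (10.9%); with none, 124 of 8805 were (1.41%). The difference was 9.47 points (6.90 to 12.7, widened over 18 motifs). It was seen in both replicates, with 7.97% against 1.204% in replicate 1 and 10.5% against 1.499% in replicate 2. Promoter copies had 11.5% against 1.73%, intronic copies 10.4% against 1.13% and intergenic copies 10.7% against 1.36%.

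Base composition moved with it. Copies at summits had a median local GC content of 42.3% and the others 37.8%. In 4 equal classes of GC content, from the lowest to the highest, 0.426%, 1.55%, 3.13% and 4.76% of copies were at a summit. Below the median GC content the GAGAGA shares were 4.62% against 0.637%, and above it 14.8% against 2.23%, so the difference was present on both sides.

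Several other neighbours went with a higher share. For GAGACG it was 5.73% against 1.97%, for GGCGGG 5.92% against 2.26% and for CAGCTG 5.67% against 2.32%. CTGCGTC gave 5.29% against 2.17%, and TGATAA, the site of GATA factors, 4.15% against 2.096%. A further CACGTG gave 6.07% against 2.14%, with 3.93 points between them (2.38 to 5.93, at 95%). Copies close together can share a summit and each was counted, so that interval treats linked copies as separate and may be too narrow. The paired heat shock element GAANNTTC went the other way, with 0.992% against 2.65%. The widened intervals of the listed motifs lay to 1 side of 0, and those of the 11 remaining motifs included 0. Apart from GAGAGA, none of these was recomputed within classes of GC content, whose part in them was not tested.

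**Figure D5:**
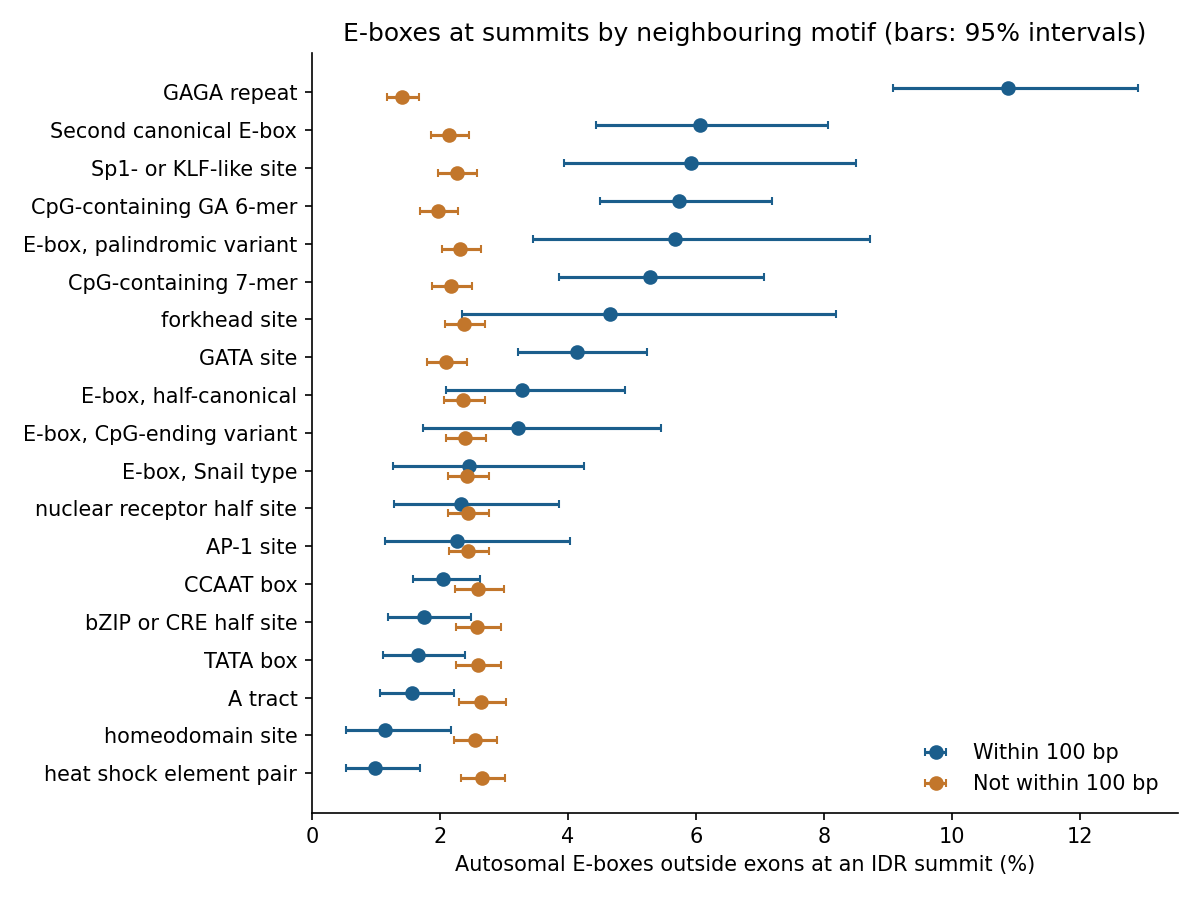
Share of the 9871 autosomal E-boxes outside exons (not classed as exonic) that lay at a reproducible summit (horizontal axis, percent). Blue is with and orange without each motif within 100 bp, and bars are exact 95% intervals. The GAGA repeat gives 10.9% against 1.41%. The GA 6-mer is GAGACG, the 7-mer CTGCGTC, and the 4 E-box variants, from the top, are CAGCTG then CACATG then CACGCG then CACCTG.

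The bases directly beside the hexamer differed between copies at summits and the rest. Flanks are named by the base before the hexamer as read on each strand, so that G/G stands for a G before it and a C after it. Outside exons, G/G copies were at a summit in 5.47% (11 copies, 2.76 to 9.58) and G/T copies in 4.69% (29 of 618, 3.17 to 6.67). C/C copies were there in 1.74% (26 of 1491, 1.14 to 2.54) and A/C copies in 1.60% (30 of 1872, 1.08 to 2.28). The other 6 classes lay between 2.11% and 3.28%. Counting both strands, the base before the hexamer was G in 20% at summits and 12.7% elsewhere (difference 7.34 points, 3.97 to 11.2), and C in 30.2% and 38.0% (-7.80, -11.8 to -3.49). In replicate 1 alone G stood there in 20.7% and in replicate 2 in 19.5%, against 12.7% elsewhere for each. The base 3 positions before the hexamer was G in 23.96% against 16.49% (7.46, 3.82 to 11.5). At both positions G was commoner at summits, and directly beside the hexamer C was rarer there. Copies at summits also had higher GC content, whose part in these differences was not tested. The 480 bases at summits came from 240 copies, with both sides of a copy counted as separate. Copies that share a summit were also each counted, so the intervals of these base differences may be too narrow. Those intervals were not widened over the bases and positions compared, and the differences given are the largest of them.

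Signal also varied with the flank among members. Median signal was 68.3 for C/G (n = 25, quartiles 38.9 and 93.4), 55.4 for G/G (n = 11, 47.2 and 71.4) and 52.1 for G/T (n = 28, 40.5 and 63.3). It was 32 for A/A (n = 15, 29.4 and 43.1), the lowest of the 10 classes. Quartiles of most classes overlapped.

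Motifs in the summit windows were then compared between members and the other autosomal regions, on both strands and after masking the E-box itself, since GAGAGA and TGATAA can share bases with it; unmasked, members held them in 54.95% and 25.7%. GAGAGA was common in both, in 121 of 222 members (54.5%) and 331 of 522 others (63.4%), against 16.22% of gene windows. Its difference of -8.91 points (-20.6 to 2.70, widened over 18 motifs) included 0. GAGACG was found in 35.1% against 44.3%, with 7.505% of gene windows, and CTGCGTC in 22.5% against 27.6%, with 3.45% of gene windows. The GAGACG difference of -9.12 points had an interval that included 0; it did not with replicate 2 alone (-13.49) or with 200 bp each side (-11.97), and with replicate 1 alone the direction turned (1.60). In members GAGAGA lay a median of 33.5 bp from the summit and 48 bp from the hexamer.

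Of the 18 motifs, 2 had a widened interval that did not include 0. The variant E-box CACGCG, which differs from the canonical one and cannot overlap it, was in 14 members (6.31%) and 91 others (17.4%), a difference of -11.13 points (-17.6 to -3.05), against 3.51% of gene windows. TGATAA was in 55 members (24.8%) and 74 others (14.2%), a difference of 10.6 points (1.43 to 20.9), against 22.96% of gene windows. Members were thus near the gene windows for TGATAA, and the regions with no E-box below them. In windows of lower GC content TGATAA was in 30.6% against 25.5%, with an interval that included 0, and in those of higher GC content in 14.1% against 4%. CACGCG was in 4.86% against 10.9% and in 8.97% against 23.3%, and in each of these classes its widened interval included 0. The median distance from TGATAA to the hexamer was 36 bp. Of all 2080 strand-merged 6-mers, 1 had an interval that did not include 0 after widening over all of them. It was ACGAGA, in 18.5% of members and 34.1% of others, with an interval that ended at -0.153. The masked E-box leaves member windows fewer positions for a motif, and the part of this in the differences was not tested.

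Genes near the members were counted next. A member's summit lay in the promoter window of 104 of 17242 autosomal protein-coding genes (0.603%), and 1.17% of these genes had the 5′ end nearest to one. For regions with no E-box the counts were 293 genes (1.70%) and 467 (2.71%), and 3 genes had both kinds of summit in their promoter window. A summit in several promoter windows was counted for each of their genes. This holds for tdo-2, nhr-68, pdi-3 and rab-7, whose regions lay nearer to the 5′ ends of C28H8.2, H12C20.7, ubql-1 and W03C9.5. Each of the 22 gene lists is read against the 0.603% and 1.17%. Lists are small, and no list was tested. A list's name is a label, and not every gene in it need fit that name.

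Metabolic genes were present among the members. Of 25 amino acid catabolism genes, 3 had a member in the promoter window (12%, 2.55 to 31.2) and 5 were nearest to one, while regions with no E-box gave 0 and 3. They included gdh-1 (265), alh-8 (98.6), an aldehyde dehydrogenase gene with its summit 370 bp upstream, hpd-1 (43.4), the hydroxyphenylpyruvate dioxygenase gene, and tdo-2 (37.1), the tryptophan dioxygenase gene. Of 26 glycolysis and gluconeogenesis genes, 2 had a promoter member and 4 a nearest one. These were hxk-3 (73.4), a hexokinase gene, pdhk-2 (68.3), a pyruvate dehydrogenase kinase gene, gsy-1 (34.9), the glycogen synthase gene, and fbp-1 (26.3), the fructose bisphosphatase gene. Regions with no E-box gave the same counts, 2 and 4. Of 54 lipid genes there were 1 and 2, against 1 and 5 for regions with no E-box; the 2 were atgl-1 (117) and nhr-49 (50.2), a receptor that regulates fat metabolism. Of 45 genes in the list named mitochondrial respiration, 0 had a promoter member and 2 a nearest one. These were mdh-2 (51.1) and idh-1 (34.02), and regions with no E-box gave 6 and 5.

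Signalling and stress genes followed. Of 18 hypoxia genes, 1 had a promoter member and 4 a nearest one, namely hif-1 (176), cyp-36A1 (37.7), fmo-2 (32) and nhr-46 (29.6); regions with no E-box gave the same counts, 1 and 4. Of 17 insulin and TOR genes, akt-1 (88.4), a kinase, and daf-2 (37.1), the insulin receptor, were nearest to a member and 0 had one in the promoter window, against 4 and 2 for regions with no E-box. Of 8 AMP-activated kinase genes, aakg-1 was nearest to one, and 2 were nearest to a region with no E-box. Among 25 autophagy genes, epg-9 (91.4) and atg-9 (63.0) were nearest to a member, the second with its summit 136 bp upstream. For regions with no E-box the autophagy counts were 2 and 5.

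Transcription factor lists gave mixed counts. Of 247 nuclear hormone receptor genes, 4 (1.62%) had a promoter member and 7 (2.83%) a nearest one, with nhr-19 (327), nhr-34 (130), nhr-135 (61.7) and nhr-68 (60.98) highest; regions with no E-box gave 5 and 10. Of 28 basic helix-loop-helix genes the counts were 1 and 3, hif-1, hlh-11 and hlh-30, and regions with no E-box also gave 1 and 3. Of the 4 autosomal genes of the Myc/Mondo network list, mml-1 and hlh-30 were nearest to a member and 0 had one in the promoter window. Of 69 homeobox genes there were 0 by either rule.

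The remaining lists covered protein synthesis, folding, traffic and structure. Of 79 ribosomal protein genes, 1 had a member in its promoter window, rpl-14 (60.05), while 14 (17.7%) had a region with no E-box. Of 8 translation elongation genes the counts were 0 and 5, and of 45 ubiquitin conjugation genes 0 and 6. Of 43 chaperone genes they were 2, pdi-3 (98.2) and pdi-1 (26.9), both protein disulfide isomerase genes, and 7. Of 50 membrane traffic genes they were 2, the GTPase genes rab-7 (64.9) and sar-1 (49.1), and 3. Of 146 genes in the list named cuticle collagens, only col-99 (55.5) was nearest to a member, and 0 had one in the promoter window. Regions with no E-box gave the same counts. The lists of neuropeptides, vacuolar ATPase, oxidative stress and heterochronic genes had 0 by either rule.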

How the data were processed

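Lists of called regions were deposited for 2 ChIP-seq replicates. Per the deposited file descriptions, a replicate's list rests on its own alignments and a control, and the pooled list on both. The reproducible regions came from these lists, by a threshold on irreproducible discovery rate (IDR). The aligner, caller, IDR cutoff and depth were not given in the sources used here. Signal deposited by the authors for each region is a score with no stated scale. The ce11 lists were used (15898 regions in replicate 1, 30000 in replicate 2 and in the pooled list); the ce10 lists were not used.

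Summits were taken from the peak offset column of the lists. Sequence was RefSeq WBcel235, which is ce11, read directly at the summits, and genes were those of Ensembl release 115, with coordinates counted from 1. A summit was listed in a replicate when a region of that replicate held it. Shares have exact Clopper-Pearson intervals and differences Newcombe intervals, at 95%, or at 99.72% for 18 motifs; they cover counting error over regions only. Regions are not replicates and there was 1 group, so no p-value is given. Searches were tested on simulated sequence. Named genes are those of the 25 members of highest signal and up to 4 per list. A member's gene is that of the promoter window holding the summit, by nearest 5′ end if there are several. Otherwise it is that of the gene body, and failing that of the nearest 5′ end. Gene lists instead count every promoter window holding the summit, and separately the nearest 5′ end. Genes named for several members or hexamers, for missing replicate regions, for shown sequences (mak-1, mtm-3) or for dauer signalling fall outside that rule and were chosen after their values were seen. The members, 18 motifs and 22 gene lists were chosen with earlier results of these data known. Alternatives were other window sizes, single replicates, splits by signal, place and GC content, and 1 region per 500 bp cluster. Python 3.11.15, numpy 2.4.6, pandas 2.3.3, scipy 1.17.1 and matplotlib 3.10.9 were used.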

Additional observations from a re-analysis of the deposited data

How the results depend on the processing

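The share of regions with the E-box was 21.9% with 50 bp each side, 33.5% with 200 bp and 35.8% of the 360 autosomal regions among the 507 of highest signal, and 24.19% to 30.01% when 1 replicate was left out. The share of genomic E-boxes at summits was 1.15% with 50 bp, 1.88% with 200 bp, 0.957% in those 360, and 1.30% to 1.66% without 1 replicate. The difference in listing by replicate 1 turned to -0.619 points with 50 bp and to -0.161 in those 360. GAGACG turned to 1.60 points without replicate 2, was -13.49 without replicate 1 and -11.97 with 200 bp; the last 2 intervals did not include 0. The genes with a member were 0.603% by promoter window and 1.17% by nearest 5′ end. The signal difference kept its direction and an interval above 0 under each alternative run, from 8.33 to 17.6 points; splits by GC content, chosen after seeing the data, gave 13.5 and 17.1. The TGATAA interval included 0 without replicate 2 (8.82 points), in those 360 (7.44), in promoters (11.96), outside them (9.43) and at lower GC content (5.05). The CACGCG interval included 0 with 50 bp (-5.15), in promoters (-9.06) and in both classes of GC content (-6.07 and -14.3). The causes were not tested. Listing by replicate 1 has no value where only 1 replicate or only regions in both were used, nor the signal split within those 360. No paired analysis was possible because there was 1 group. With read depth unknown, no value could be weighted by depth.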

Other observations

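Dauer TGF-β signalling genes were looked up after daf-14 was seen among the highest members. Of 6 autosomal genes of that pathway looked up, 3 had an E-box region by the gene rule. Daf-14, a Smad gene, had a signal of 111 in an intron, and daf-5, which encodes a Ski-type partner, had 63.0 in an intron 7868 bp inside the gene. Daf-1, a receptor gene, had 31.2 with its summit 190 bp upstream. Daf-4, daf-7 and daf-8 had none. By the same rule daf-5 also had regions with no E-box, with signals of 157, 46.1 and 32.8, so that its strongest region lacked the hexamer, and daf-4 had 1 such region with 48.0. The genes were chosen with the values known and no share over all genes was computed for this rule, so the count is a description.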
